A study of Mus musculus with 6 samples.

Results

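The endoplasmic reticulum (ER) chaperones examined here are 10 genes chosen by name, Hspa5, Hsp90b1, Calr, Canx, Pdia3, Pdia4, Pdia6, P4hb, Hyou1 and Herpud1, of the 24411 gene symbols in the liver count table. All 10 were found in the table and all 10 passed the filter on low counts, among 5945 genes tested. Secreted and membrane proteins enter the ER unfolded, and there chaperones of the Hsp70 and Hsp90 families hold them, lectins retain those that carry N-linked glycans, and disulfide isomerases pair their cysteines. When unfolded proteins accumulate, the sensors IRE1, ATF6 and PERK start the unfolded protein response (UPR), which raises transcription of these genes. Hepatocytes, which make most plasma proteins, are rich in this machinery.

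Livers of p62+/+ mice (n = 3) and p62S351E/+ mice (n = 3) were sequenced at postnatal day 19. The p62S351E/+ mice are heterozygous for a knock-in in Sqstm1, the gene encoding the autophagy receptor p62, in which Glu takes the place of Ser351 to mimic phosphorylation at that site, which strengthens the binding of p62 to KEAP1, the inhibitor of the transcription factor NRF2. The change was made by prime editing (a Cas9 nickase joined to a reverse transcriptase that writes a short edit from its guide RNA) in C57BL/6N embryonic stem cells. The heterozygotes came from in vitro fertilization with sperm of 1 male chimera, so the edited allele has a single origin, and it was present in every tissue and not in liver alone. The study reports severe growth retardation and mild liver enlargement in these heterozygotes at younger ages. Their serum then showed low glucose and other signs of malnutrition and dehydration. Genotype and nutritional state thus cannot be told apart here, and the part of nutrition in the values below was not tested. The labels name separate mice and no treatment, litter, sex or batch.

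The deposited values are estimated read counts per gene, and 134911 to 315436 counts per library fell outside Rn45s, Lars2 and Mir6236, which took the rest of the 8696712 to 10341622 counts. The 10 hepatocyte markers were detected in all 6 libraries, with 11861 to 27751 counts in sum. Transcripts of 10 brain markers were also counted. Their sum was 2156 to 2504 in the p62+/+ mice and 2313 in p62S351E/+ mouse 3, with 10 of 10 markers detected, against 19 and 32 in p62S351E/+ mice 1 and 2, where 3 and 5 markers were detected. Xist, the RNA that coats the silenced X of females, had 70.8 counts in p62+/+ mouse 1 and 1 and 0 counts in p62S351E/+ mice 1 and 2, against 1505 and 1071 counts in p62+/+ mice 2 and 3 and 1537 counts in p62S351E/+ mouse 3. Counts of 4 Y-linked genes summed to 44 to 77 in the first 3 of these mice and to 12 to 21 in the others. The levels of the 10 genes are therefore also given without p62S351E/+ mouse 3 and within mice of like Xist count. Sqstm1 itself had 79.1 ± 6.78 normalized counts in the p62+/+ livers against 97.2 ± 7.44 (SD, n = 3 each). Its fold change was 0.30 on the log2 scale (standard error, SE, 0.20, adjusted p = 0.498 by edgeR's quasi-likelihood test), and a count per gene does not read the edited codon.

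The best known promoter sequence of this group is the ER stress element (ERSE), which was found in some of the 10 genes. It is CCAAT, 9 bases of any kind and CCACG, bound by NF-Y at its first part and by ATF6 or XBP1 at its last. RefSeq windows of 300 bases (250 before to 50 after the start, GRCm38.p6) were given for 9 of the 10 genes, not for Hyou1. An ERSE was found on either strand in 5 of these 9, against 39 of all 32851 windows (0.119%), which belong to 37 genes. The element was searched because it is known from this group, so its presence here is a description and carries no test. The related ERSE-II (ATTGG, 1 base of any kind, CCACG) was found in Herpud1, and in 12 of all windows (0.0365%). The stretches below are those elements with 5 bases on each side, written along the gene's strand with the element in capitals. The coordinates of the printed stretches are Hspa5 chr2:34772020-34772048 (plus strand), Hsp90b1 chr10:86705633-86705661 and chr10:86705528-86705556 (minus), Calr chr8:84847070-84847098 (minus), Canx chr11:50325795-50325823 (minus), Pdia6 chr12:17266486-17266514 (plus) and Herpud1 chr8:94386372-94386392 (plus). In the second Hsp90b1 element and in Calr the ERSE lies on the opposite strand, so the capitals begin with CGTGG and end with ATTGG.
Hspa5, 65 bases before the start: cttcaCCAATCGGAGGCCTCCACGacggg
Hsp90b1, 212 bases before the start: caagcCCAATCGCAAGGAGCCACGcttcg
Hsp90b1, 107 bases before the start: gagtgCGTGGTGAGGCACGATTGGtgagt
Calr, 162 bases before the start: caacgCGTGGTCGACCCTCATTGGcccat
Canx, 145 bases before the start: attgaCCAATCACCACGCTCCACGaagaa
Pdia6, 98 bases before the start: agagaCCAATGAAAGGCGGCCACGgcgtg
Herpud1 (ERSE-II), 52 bases before the start: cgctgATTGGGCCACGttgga
Every printed stretch lies upstream of the RefSeq start, and the Hspa5 stretch is inside the gene as GENCODE bounds it. The windows of P4hb and Pdia4, the 2 genes with the highest fold changes below, held none of the 4 motifs searched. These were ERSE, ERSE-II, TGACGTGG and the core of the antioxidant response element (TGAC, 3 bases of any kind, GC), the element that NRF2 binds. Only exact matches within these 300-base windows were searched. Variant elements and elements elsewhere would be missed, so a window without a motif does not show that a gene lacks one. The TGACGTGG motif was in 0 of the 9 windows and in 0.676% of all. The antioxidant core was in the windows of Calr, Pdia3 and Herpud1, a short motif that 12.4% of all windows hold.

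No ER chaperone transcript passed the test between the genotypes. By edgeR, 0 of the 10 were called higher and 0 lower at an adjusted p below 0.05, where 0.841% of the 5945 genes were called higher and 0.0841% lower. All 10 fitted log2 fold changes (p62S351E/+ over p62+/+) were above 0, between 0.08 and 1.27 with a median of 0.41, while 48.0% of all genes tested were above 0 and their median was -0.03. Without p62S351E/+ mouse 2, 6 of the 10 were above 0 and the median was 0.08. With each library scaled by its total or by its hepatocyte markers, 4 of the 10 stayed above 0 (median -0.31 and -0.35), and the median of all genes moved to -0.68 and -0.66. Relative to all genes the ER chaperones then stood 0.37 and 0.31 higher on the log2 scale, against 0.44 with the main scaling. This offset was -0.01 with the brain-marker sum as a covariate and 0.06 with Xist as a covariate. It was 0.15 with at least 10 counts in every library and 0.14 without p62S351E/+ mouse 2. The largest offset, 0.75, came without p62S351E/+ mouse 3. P4hb, Pdia4 and Hyou1 had an unadjusted p below 0.05, as did 9.02% of all genes in that direction. DESeq2 also called 0 of the 10, where it called 3.14% of the 1814 genes with an adjusted p higher. P4hb was called by limma-voom, which called 2.25% of all genes higher, and with at least 10 counts in every library, where 4.27% were.

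The Hsp70 of the ER, BiP, is encoded by Hspa5 (ENSMUSG00000026864.13, GRCm38 chromosome 2 from 34771970 to 34777547, 9 exons). In p62+/+ mice 1 to 3 it had 218, 115 and 128 normalized counts, against 246, 495 and 155 in p62S351E/+ mice 1 to 3, the order used for every gene below. Thus p62S351E/+ mouse 2 stood above the other mice, and mouse 3 lay within the range of the p62+/+ mice. The log2 fold change was 0.96 (SE 0.45, 95% interval -0.09 to 2.01, adjusted p = 0.374). Hyou1 (chromosome 9, 44379490 to 44392369, 26 exons) encodes GRP170, a large Hsp70 relative that exchanges the nucleotide of BiP. It had 61.8, 30.3 and 37.1 normalized counts in p62+/+ and 76.2, 117 and 51.1 in p62S351E/+ mice, and its log2 fold change was 0.92 (SE 0.37, interval 0.07 to 1.76, adjusted p = 0.313). Again p62S351E/+ mice 1 and 2 were above every p62+/+ mouse and mouse 3 was not.

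Hsp90b1 (chromosome 10, 86690209 to 86705509, 18 exons) encodes GRP94, the Hsp90 of the ER, which folds integrins and Toll-like receptors among other clients. It had 260.0, 143 and 182 normalized counts in p62+/+ and 236, 443.5 and 179.7 in p62S351E/+ mice. Only p62S351E/+ mouse 2 was above the p62+/+ range, and the log2 fold change was 0.55 (SE 0.37, interval -0.29 to 1.40, adjusted p = 0.501).

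Among the lectins, which bind glycoproteins that still carry a single glucose, Calr (calreticulin, chromosome 8, 84841850 to 84846934, 9 exons) had 262, 148 and 149 normalized counts in p62+/+ and 162, 294 and 135 in p62S351E/+ mice. Canx (calnexin, its membrane-bound counterpart, chromosome 11, 50293961 to 50325673, 15 exons) had 130.0, 100.1 and 92.4 in p62+/+ against 114, 142 and 109 in p62S351E/+ mice. The groups overlapped for both. The intervals of their log2 fold changes, -0.73 to 0.89 around 0.08 for Calr and -0.33 to 0.69 around 0.18 for Canx, leave room for a change of either sign.

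P4hb and Pdia4 were the only 2 of the 10 whose groups did not overlap, both with higher values in p62S351E/+ mice, and 12.0% of all genes tested separated in that direction. P4hb (ENSMUSG00000025130.11, chromosome 11, 120560298 to 120573253, 11 exons) encodes protein disulfide isomerase, which is also the beta subunit of collagen prolyl 4-hydroxylase and a subunit of the microsomal triglyceride transfer protein. Its normalized counts were 150.1, 122 and 141 in p62+/+ against 316, 471 and 207 in p62S351E/+ mice, 138 ± 14.4 against 331 ± 133 (SD, n = 3 each). The p62+/+ mice lay close together, and each p62S351E/+ mouse was above all of them. The log2 fold change was 1.27 (SE 0.31, interval 0.57 to 1.97), with an unadjusted p of 0.00291 and an adjusted p of 0.120 over all genes by edgeR. Pdia4 (ERp72, chromosome 6, 47796141 to 47813430, 10 exons) carries 3 thioredoxin-like active sites and is a partner of BiP. It had 59.4, 26.4 and 43.2 normalized counts in p62+/+ and 68.55, 139 and 61.97 in p62S351E/+ mice, a log2 fold change of 1.06 (SE 0.40, interval 0.15 to 1.97, adjusted p = 0.290). The gap between the groups was small for Pdia4, between p62+/+ mouse 1 and p62S351E/+ mouse 3.

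The other isomerases did not separate. Pdia3 (ERp57, the partner of calreticulin and calnexin, chromosome 2, 121413775 to 121438687, 13 exons) had 88.3, 60.55 and 81.2 normalized counts in p62+/+ and 80.0, 135 and 60.4 in p62S351E/+ mice. Pdia6 (P5, which also tempers the UPR sensors, chromosome 12, 17266545 to 17284770, 13 exons) had 47.35, 30.3 and 38.9 in p62+/+ against 36.2, 68.0 and 35.6 in p62S351E/+ mice. For both, p62S351E/+ mice 1 and 3 lay within or below the p62+/+ range. Their log2 fold changes were 0.26 with a standard error of 0.32 for Pdia3 and 0.26 with a standard error of 0.31 for Pdia6.

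Herpud1 (chromosome 8, 94386438 to 94395377, 8 exons) encodes an ER membrane protein that helps assemble the degradation complex around the ubiquitin ligase HRD1, and its transcript is a widely used readout of the UPR. It had 116, 90.05 and 81.2 normalized counts in p62+/+ and 76.2, 205 and 58.1 in p62S351E/+ mice. The p62S351E/+ mice thus held both the highest and the 2 lowest values of the 6. The log2 fold change was 0.24 (SE 0.46, interval -0.84 to 1.33, adjusted p = 0.816), the widest interval of the 10.

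**Figure D1:**
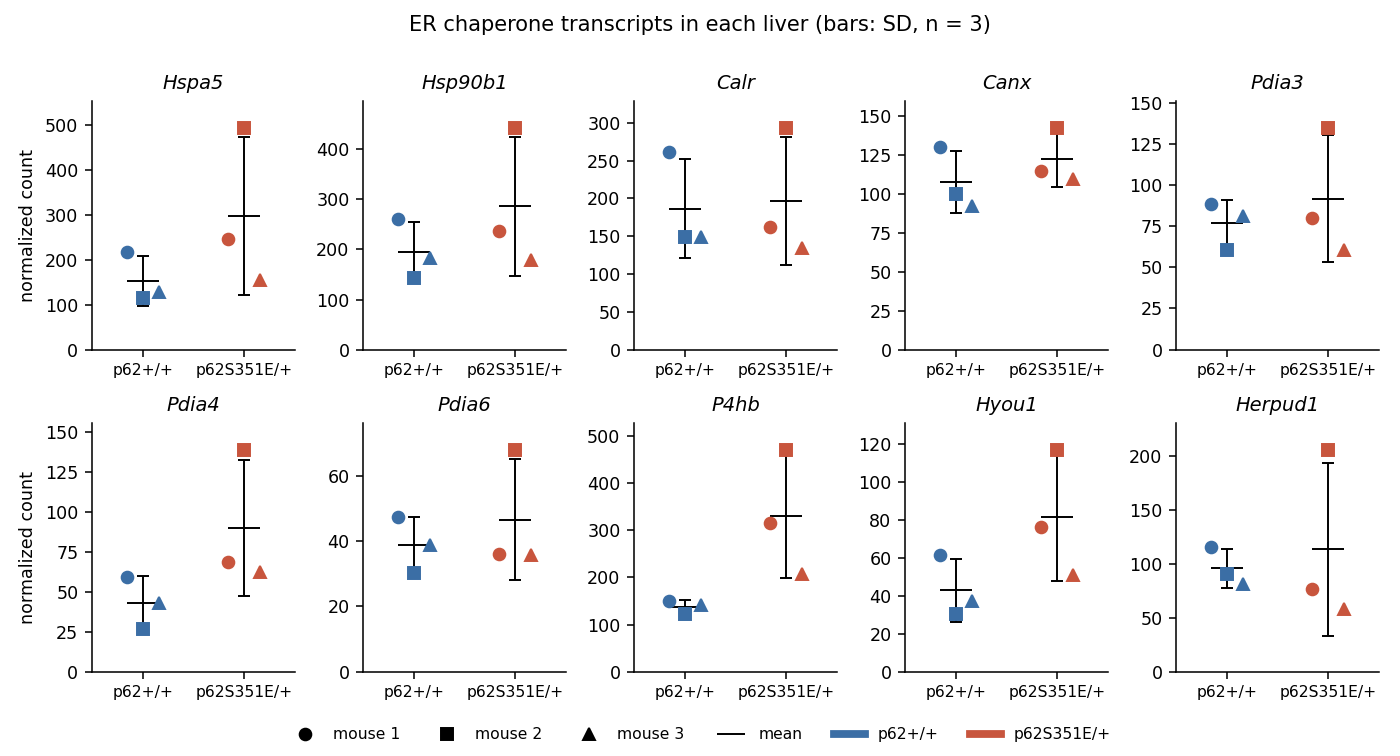
Normalized counts (linear axes from 0) of the 10 ER chaperone transcripts, 1 point per mouse, with mean and SD of 3 mice per genotype. p62S351E/+ mouse 2 (red square) is the highest of the 6 mice for all 10 genes, and the groups do not overlap for P4hb and Pdia4.

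On normalized counts, 1 mouse of each group stood out for the whole set. p62S351E/+ mouse 2 was the highest of the 6 mice for 10 of 10 genes, and p62+/+ mouse 1 the highest of its group for 10 of 10. The value of p62S351E/+ mouse 2 exceeded that of mouse 1 by 1.25 (Canx) to 2.70 (Herpud1) times. p62S351E/+ mouse 3 was within or below the p62+/+ range for 8 of the 10 and below the lowest p62+/+ mouse for 3. The hepatocyte-marker counts were also highest in p62S351E/+ mouse 2 (27751). Per 1000 of these counts, the summed counts of the 10 genes were 71.8 in that mouse and 92.0 in p62+/+ mouse 1. The spread between mice was larger than counting error alone, with a coefficient of variation of 70.9% for Herpud1 in p62S351E/+ mice where the counts (19 to 393 per gene and library over the 10 genes) allow 10.8%. P4hb in p62+/+ mice was the steadiest, at 10.4% against 7.7% from counting.

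Xist moved with this pattern. The 3 mice with few Xist counts, p62+/+ mouse 1 and p62S351E/+ mice 1 and 2, had the highest mean standardised levels of the 10 genes (0.33, 0.09 and 1.61), and the 3 with many had the lowest (-0.95, -0.59 and -0.49). Among the mice with few Xist counts, every p62S351E/+ mouse was above the p62+/+ mouse for 4 of the 10 genes and below it for 0, where 32.7% and 41.0% of all genes tested were. Among those with many, the p62S351E/+ mouse was above both p62+/+ mice for 5 and below both for 3 (Calr, Pdia3 and Herpud1), against 34.4% and 36.5% of all genes. Hspa5, Pdia4, P4hb and Hyou1 were higher in each comparison, with ratios of 1.70, 1.74, 2.62 and 1.56 at low and 1.28, 1.78, 1.57 and 1.52 at high Xist. The share of all genes higher in both comparisons was not counted, so no meaning is attached to the number of these genes. These comparisons have 1 mouse on one side and carry no test. The part of Xist and of whatever differs with it in the pattern was not tested beyond a fit with Xist as a covariate, in which 5 of the 10 log2 fold changes were above 0 and P4hb had 0.76 (adjusted p = 0.376).

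The brain markers separated p62S351E/+ mice 1 and 2 from the other 4 mice. Without p62S351E/+ mouse 3, the one p62S351E/+ library that held them, 4 of the 10 genes passed the test and were higher, where 7.0% of the 6390 genes tested were called higher. These were P4hb (log2 fold change 1.52, adjusted p = 0.000475), Hspa5 (1.27, adjusted p = 0.0165), Hyou1 (1.17, adjusted p = 0.0179) and Pdia4 (1.27, adjusted p = 0.0245), and leaving the mouse out raised the number of genes called higher over the whole table from 50 to 447. With the brain-marker sum as a covariate 0 of the 10 passed, 5 were above 0, and P4hb had 0.62. p62S351E/+ mouse 3 was also the one mouse of its group with many Xist counts (1537, against 1 and 0 in mice 1 and 2). Leaving it out thus changed the Xist counts of the group as well, and their part in the 4 calls was not tested. Genotype and brain-marker level cannot be told apart in p62S351E/+ mice 1 and 2. In bulk liver RNA, fewer cells of a type and less RNA per cell cannot be told apart either.

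**Figure D2:**
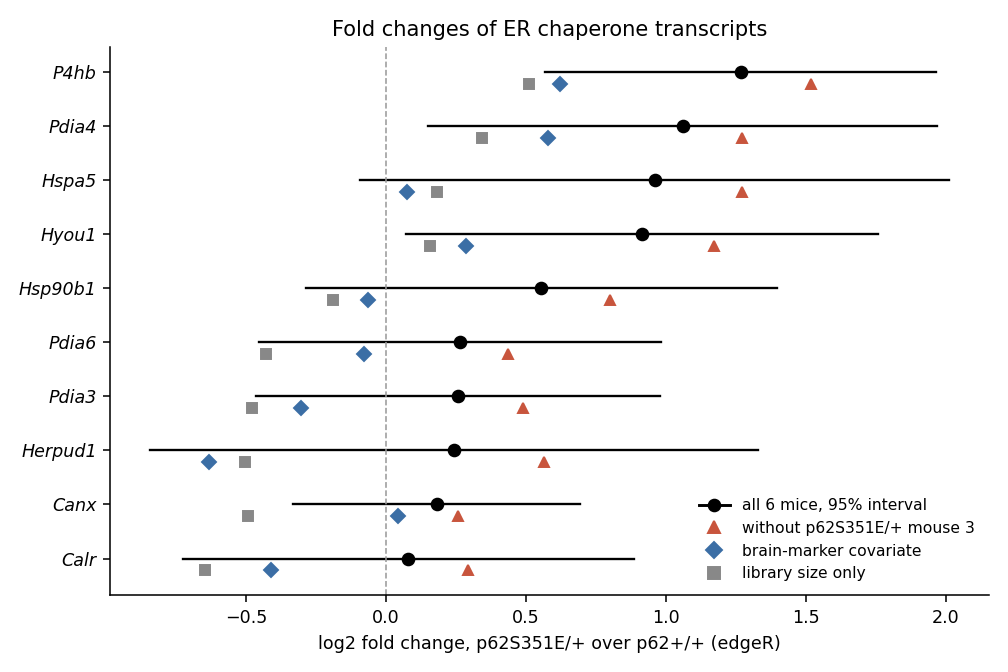
Log2 fold changes of the ER chaperone transcripts from edgeR, with the 95% interval of the fit to all 6 mice (black) and the value under 3 other settings. P4hb, Pdia4, Hspa5 and Hyou1 are above 0 in every setting drawn, the other 6 are below 0 with library size only, and 95% intervals exclude 0 for P4hb, Pdia4 and Hyou1 before adjustment over all genes.

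The balance between the 10 genes, which does not depend on how a library is scaled, was compared as the share of each gene in their summed counts. P4hb made up 10.8, 14.1 and 14.5% of the summed counts of the 10 genes in p62+/+ against 22.4, 18.8 and 19.65% in p62S351E/+ mice. Calr went the other way, with 18.8, 17.1 and 15.3% against 11.5, 11.7 and 12.8%. Each difference in means was larger than the spread within the groups, 13.1 ± 2.02 against 20.3 ± 1.89% for P4hb and 17.1 ± 1.77 against 12.0 ± 0.713% for Calr (SD, n = 3 each). The exact two-sided permutation test gave p = 0.1 for both, the smallest that 3 against 3 mice allow, and 0.143 after Benjamini-Hochberg adjustment over the 10 shares.

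Shares without overlap were found for 7 of the 10 genes. P4hb, Pdia4 and Hyou1 were higher, and 1.63% of all genes tested were higher without overlap when divided by the same sum. Calr, Pdia3, Pdia6 and Herpud1 were lower, where 14.9% of all genes were. Shares add up to a fixed total, so a higher share of P4hb lowers the others. The other genes are not part of the sum by which they were divided. Their percentages are therefore not a like background for the 10 shares. Pdia4 had 4.27, 3.05 and 4.44% in p62+/+ and 4.86, 5.52 and 5.89% in p62S351E/+ mice. Hyou1 had 4.44, 3.50 and 3.82% against 5.398, 4.67 and 4.86%. Pdia3, the lectins' partner, had 6.34, 7.00 and 8.34% against 5.67, 5.37 and 5.74%. Shares without overlap place p62S351E/+ mouse 3 on the same side as mice 1 and 2 by definition. The part of the brain-marker transcripts in the shares was not tested. Hspa5 (14.01 ± 1.40 against 17.3 ± 2.51%), Hsp90b1 (18.0 ± 1.27 against 17.2 ± 0.474%) and Canx (10.1 ± 1.24 against 8.05 ± 2.35%) overlapped between the groups.

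**Figure D3:**
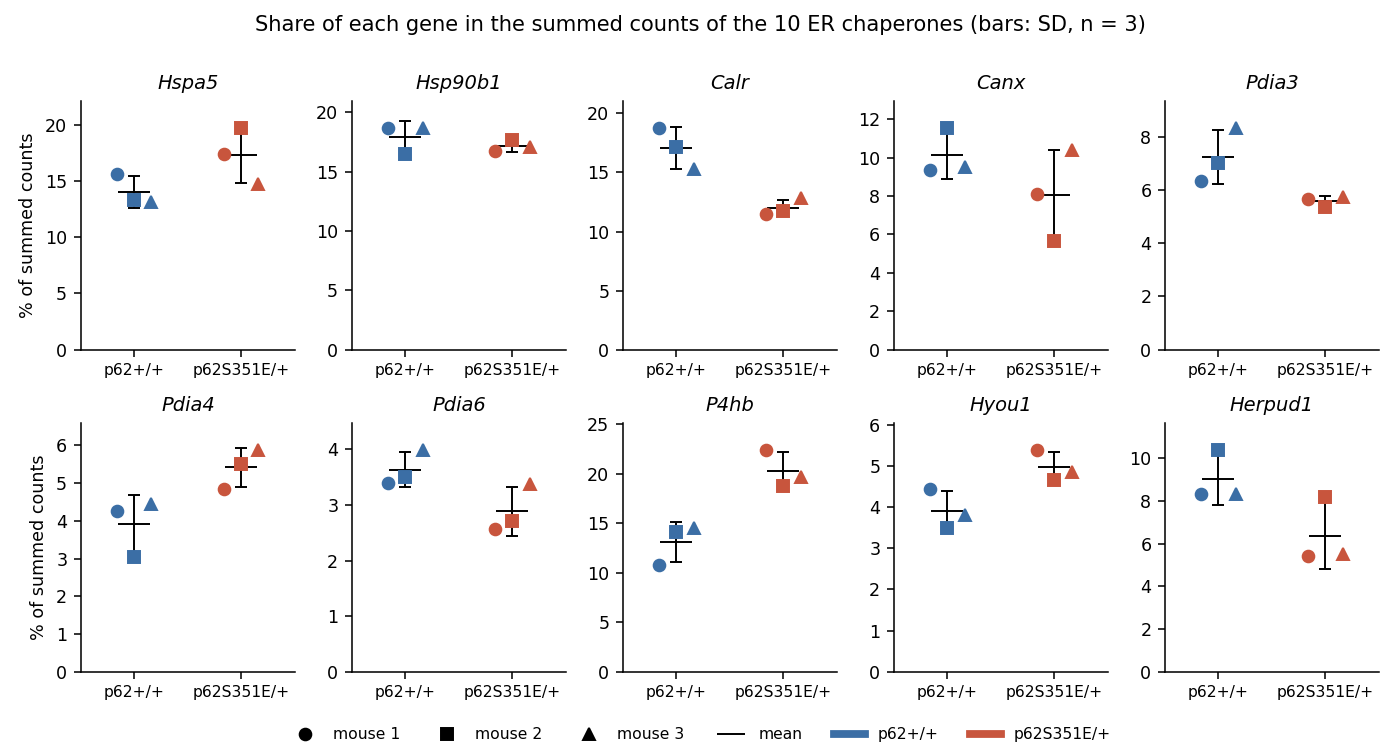
Share of each gene in the summed counts of the 10 ER chaperones (percent, linear axes from 0), 1 point per mouse, with mean and SD of 3 mice per genotype. The shares of P4hb, Pdia4 and Hyou1 are higher and those of Calr, Pdia3, Pdia6 and Herpud1 lower in all 3 p62S351E/+ mice than in any p62+/+ mouse.

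As a ratio within each library, P4hb over Calr was 0.574, 0.822 and 0.948 in p62+/+ against 1.95, 1.61 and 1.53 in p62S351E/+ mice. Hspa5 over Calr, the main ER Hsp70 against the lectin, was 0.831, 0.775 and 0.860 against 1.52, 1.69 and 1.15. These pairs were chosen after the values were seen, and neither overlapped between the genotypes.

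Per kilobase of transcript, the scale on which levels of different genes were compared, Calr was first in each p62+/+ mouse (120, 67.9 and 68.0 normalized counts per kilobase) and P4hb was first in each p62S351E/+ mouse (110.5, 165 and 72.3). P4hb had rank 5, 4 and 3 in p62+/+ mice 1 to 3, and Calr rank 3, 4 and 3 in the p62S351E/+ mice. Division by coding length left the same gene first in all 6 mice. In p62+/+ livers the order by mean was Calr, Hsp90b1, Herpud1, P4hb, Hspa5, Pdia3, Canx, Pdia4, Pdia6 and Hyou1, from 85.2 to 9.59. Neighbours differed by more than the SD of their difference within mice for Calr and Hsp90b1 (16.2 ± 12.2), but not for Herpud1 and P4hb (0.888 ± 7.54), P4hb and Hspa5, Pdia3 and Canx, or Pdia4 and Pdia6. In p62S351E/+ livers the order was P4hb, Hsp90b1, Calr, Hspa5, Herpud1, Pdia4, Pdia3, Canx, Pdia6 and Hyou1, from 116 to 18.2. There P4hb and Hsp90b1 differed by 14.4 ± 10.8, and the neighbours Calr and Hspa5, Herpud1 and Pdia4, Pdia4 and Pdia3, and Pdia3 and Canx did not differ beyond that spread.

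Summed over the 10 genes, the normalized counts were 1392, 866 and 973 in p62+/+ against 1411, 2510 and 1053 in p62S351E/+ mice. Set against hepatocyte transcripts, the sum was 92.0, 62.4 and 67.4 per 1000 hepatocyte-marker counts in p62+/+ and 62.5, 71.8 and 65.5 in p62S351E/+ mice. The groups overlapped on both scales, with means in opposite order, 1077 ± 278 against 1658 ± 759 and 73.9 ± 15.8 against 66.6 ± 4.74 (SD, n = 3 each).

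The 10 transcripts varied together over the 6 mice. Pearson's r of their log2 normalized counts was above 0.8 in 33 of 45 pairs, with a median of 0.868, from 0.475 (Calr and P4hb) to 0.978 (Hspa5 with Hsp90b1 and with Hyou1). All pairs share the libraries, their scaling and the genotype. Among 2499 other genes with at least 20 normalized counts on average, those most like the mean profile of the 10 over the 6 mice were Sidt2 (r = 0.989), Apon (0.986), Tmed2 (0.975), Cp (0.973) and Serpind1 (0.967). Tmed2 encodes a cargo receptor of vesicles between ER and Golgi, and Cp and Serpind1 encode the plasma proteins ceruloplasmin and heparin cofactor 2.

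Other genes of the ER folding pathway did not pass the test in either direction. Of 13 co-chaperones and luminal helpers tested, 0 were called and 10 were above 0, with a median log2 fold change of 0.61. Values among those that serve BiP included 0.86 for Dnajc3 (SE 0.36, adjusted p = 0.325), 0.77 for Dnajb11, 0.67 for Dnajb9 and 0.61 for Sdf2l1. They also included 0.39 for Sil1, 0.30 for Dnajc1 and -0.31 for Dnajc10 (SE 0.43, adjusted p = 0.736). Serpinh1, the collagen chaperone HSP47, had the lowest adjusted p of the list with the opposite sign. Its counts were 17, 18 and 11 in p62+/+ against 2, 2 and 6 in p62S351E/+ mice (log2 fold change -1.70, SE 0.45, adjusted p = 0.149). The 10 stellate cell and fibroblast markers, genes of the cells that make most liver collagen, summed to 213 to 407 counts in p62+/+ and 77 to 185 in p62S351E/+ mice, and their part in the Serpinh1 value was not tested.

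Among 13 other disulfide isomerases and oxidases 8 were above 0 (median 0.15), and Tmx2, a thioredoxin-like membrane protein, had the lowest adjusted p (-0.999, SE 0.29, adjusted p = 0.194). The calnexin cycle (6 of 7 above 0, median 0.22), with Uggt1, the glucosyltransferase that returns unfolded glycoproteins to the lectins, at 0.59 (SE 0.30, adjusted p = 0.409), had 0 calls. So did ER-associated degradation (16 of 19 above 0, median 0.32), with 0.61 (SE 0.28, adjusted p = 0.357) for Ubxn4, an ER anchor of the p97 ATPase, and the 2 prolyl isomerases tested, with Ppib at 0.10. The oligosaccharyltransferase had 7 of 7 above 0 (median 0.54), with 1.004 (SE 0.29, adjusted p = 0.203) for Magt1. The translocon list had 10 of 16 above 0 (median 0.33), with Sec61a1, the channel's pore subunit, at 0.94 (SE 0.28, adjusted p = 0.203), and COPII export 15 of 19 (median 0.26), with Mia3, the receptor that loads large cargo, at 1.10 (SE 0.23, adjusted p = 0.0859). With library size only, the medians of all these lists were below 0, as was that of all genes.

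No gene of the upstream part of the UPR was called, and the standard errors leave room for changes of either sign. Of 15 sensors and transcription factors listed, 7 were tested, and 4 of these 7 were above 0, with a median of 0.00. Xbp1, the factor spliced by IRE1, had 0.14 (SE 0.32, adjusted p = 0.855), Atf6 had -0.03 (SE 0.40, adjusted p = 0.973), Atf4 had 0.00 (SE 0.31, adjusted p = 0.996) and Eif2ak3, which encodes PERK, had 0.54 (SE 0.52, adjusted p = 0.622). These are gene counts, which do not show the splicing of Xbp1 or the cleavage of ATF6. Ddit3, the stress factor CHOP, had 1 to 6 counts per library and was not tested. Among 11 integrated stress response targets 5 were above 0 (median -0.16), and Atf5, a factor whose levels are set in part by translation, had 1.02 (SE 0.26, adjusted p = 0.133).

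Chaperones of other compartments gave a mixed picture. Of 20 cytosolic chaperones 4 were above 0 (median -0.33), with Hspa8, the constitutive Hsp70, at 0.29 (SE 0.22, adjusted p = 0.554) and Hspa4l at -1.49 (SE 0.48, adjusted p = 0.241). The counts of Hspa4l were 23 to 32 in p62+/+ mice and 18 in p62S351E/+ mouse 3, against 2 and 3 in p62S351E/+ mice 1 and 2, the mice with few brain-marker counts, and the part of these in the Hspa4l value was not tested. Of 8 mitochondrial chaperones 6 were above 0 (median 0.43), with Grpel1 at 0.77 (SE 0.33, adjusted p = 0.338). The secreted plasma proteins, which the ER folds, had 20 of 22 above 0 with a median of 0.45, near that of the ER chaperones. There, Apob had 1.10 (SE 0.27, adjusted p = 0.121) and Alb 0.83 (SE 0.34, adjusted p = 0.319). For comparison, 3 of 6 NRF2 targets taken from the study, which names them in mouse livers or in cell lines, were called higher, Gstm1 (3.59, adjusted p = 0.00051), Ugdh (2.55, adjusted p = 0.00602) and Gclc (2.57, adjusted p = 0.0127), and a list taken from the study is no independent evidence of direction.

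**Figure D4:**
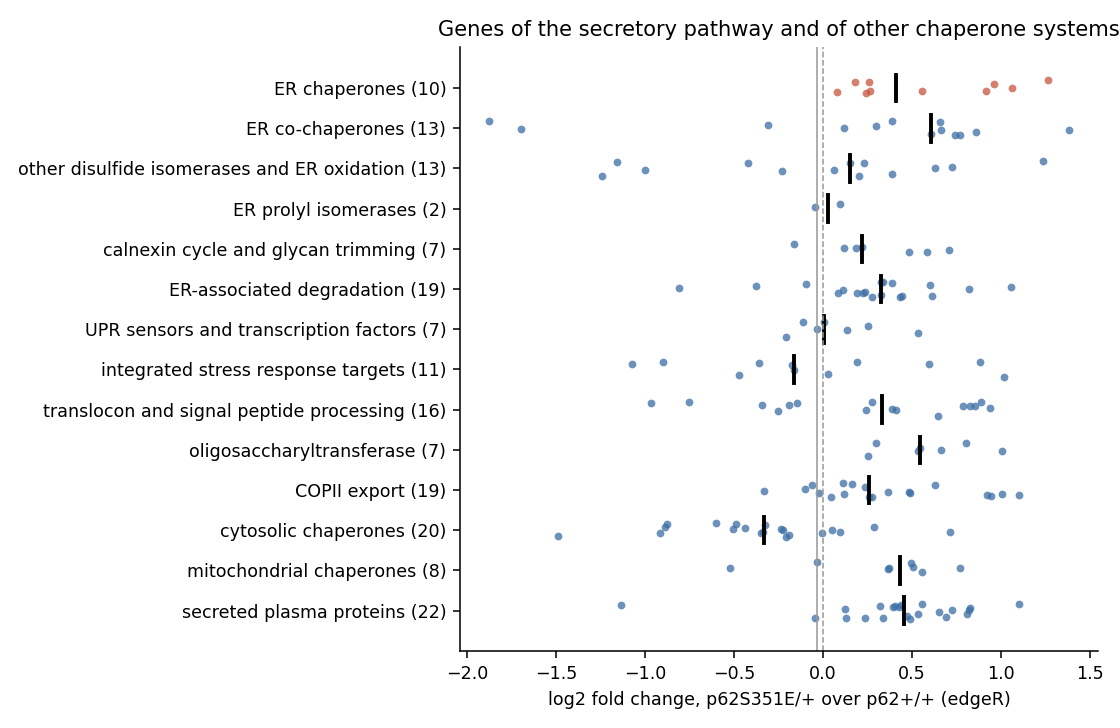
Log2 fold changes (edgeR, p62S351E/+ over p62+/+) of the tested genes of each list, 1 point per gene, with the number tested in parentheses and the list's median as a black bar (points are spread vertically for legibility). The dashed line is 0 and the grey line the median of all 5945 genes, -0.03. The 10 ER chaperones (red) lie between 0.08 and 1.27, and with library size only the median of every list drawn is below 0.

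Within the 10, the fold changes can be set beside the promoter elements printed above. The 5 genes with an ERSE had a median log2 fold change of 0.26, from 0.08 (Calr) to 0.96 (Hspa5). The 4 genes with a window and no ERSE had a median of 0.66, from 0.24 (Herpud1, whose window holds the related ERSE-II) to 1.27 (P4hb). These are 9 genes in the same 6 mice and the difference carries no test.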

How the data were processed

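Ribosomal RNA was depleted from total liver RNA, and libraries were read as single ends of 75 bases. The authors trimmed reads with Trim Galore, mapped them with STAR to mm10 and deposited expected counts per gene symbol from RSEM, without normalization. Versions, annotation and strand setting are not given in the sources used here. The expected counts were whole numbers for all 10 genes in all libraries, while 6.45% of nonzero values in the table were not whole, and all were rounded for testing.

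Groups were taken from the labels. Genes were filtered with filterByExpr (minimum count 10), scaled by TMM and compared by the quasi-likelihood test of edgeR 4.0.16 (R 4.3.3, legacy method off, robust), with Benjamini-Hochberg adjustment over all genes tested. A gene was called at an adjusted p below 0.05, whatever its fold. Standard errors are the log2 fold change over the square root of F. Normalized counts are counts divided by each library's TMM-scaled size, set so that the geometric mean of the 6 divisors is 1. limma-voom (limma 3.58.1), DESeq2 1.42.0 (which the study used), other scalings, filters, covariates, the replicate number as a block and leaving out each mouse were alternatives. Hepatocyte-marker scaling and the Xist covariate were added after seeing the data. In counts simulated for this comparison (5506 genes tested), edgeR recovered 85.0% of 100 genes changed by a log2 fold change of 2. It recovered 8.08% of 99 genes changed by 1, and 7.0% of its 100 calls were false. Changes near 1 thus mostly went uncalled in the simulated counts. These were drawn for each gene and library independently, without differences between mice that many genes share, so recovery in these livers can differ.

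The 10 genes and all lists were chosen with earlier results of these data known. Named are all 10, Sqstm1, the called genes of each list (at most 4) or else the one with the lowest adjusted p, 8 stress and liver genes fixed by name, and the 5 genes most alike in pattern. Any other gene named was chosen after its values were seen. The p-values of edgeR set each difference against the spread between these mice, estimated with information shared over genes. Those of the permutation test come from relabelling the mice. Precision is limited because most counts fall on Rn45s, Lars2 and Mir6236, and counting intervals do not cover differences between livers. Gene positions are from GENCODE vM21 and promoter windows from RefSeq, both GRCm38. Protein sequences were not analysed here.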

Additional observations from a re-analysis of the deposited data

How the results depend on the processing

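Of the ER chaperones, Hspa5, Pdia4, P4hb and Hyou1 kept log2 fold changes above 0 in all 20 alternatives, between 0.50 and 1.52 for P4hb with adjusted p from 0.000475 to 0.783. The other 6 did not, and the cause was not tested. P4hb alone passed with limma-voom (1 gene of the 10, log2 fold change 1.19, adjusted p = 0.0336, 2.25% of all genes called higher) and with at least 10 counts in every library (1 of the 10, 0.99, adjusted p = 0.0169, 4.27% of all genes), a filter that left 2343 genes and can remove genes that fell. The number called, 0 in the main comparison, ranged from 0 to 4 when 1 mouse was left out, and the 4 appeared without p62S351E/+ mouse 3. The median of the 10 was -0.31 with library size only and -0.35 with hepatocyte-marker scaling, and 0.08 without p62S351E/+ mouse 2, with 6 of the 10 above 0.

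Over all genes, against 50 higher and 5 lower, limma-voom called 134 and 13, library size only 12 and 2, no filter on low counts 79 and 10, at least 10 counts in every library 100 and 45, the brain-marker covariate 29 and 2 and the Xist covariate 27 and 2. Hepatocyte-marker scaling called 11 higher, DESeq2 11 lower and the legacy method of edgeR 8 lower. Leaving out 1 mouse gave 16 to 447 higher and 1 to 994 lower, with both upper ends without p62S351E/+ mouse 3. With the replicate number as a block, 18 genes were called higher and 1 lower, and 0 of the 10 ER chaperones. The number does not pair the mice, which are different animals, and deviations from the group means of same-numbered mice had correlations of 0.07, -0.08 and 0.0026 across genes, so not every mouse correlated best with its own number.

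Log2 fold changes changed sign as follows. With library size only they were Hsp90b1 -0.19, Calr -0.65, Canx -0.49, Pdia3 -0.48, Pdia6 -0.43, Herpud1 -0.51, Ppib -0.63, Uggt1 -0.21, Ubxn4 -0.12, Eif2ak3 -0.097, Xbp1 -0.63, Atf4 -0.65, Dnajb9 -0.047, Hspa8 -0.38 and Sqstm1 -0.39. With hepatocyte-marker scaling they were Hsp90b1 -0.22, Calr -0.68, Canx -0.48, Pdia3 -0.50, Pdia6 -0.47, Herpud1 -0.61, Ppib -0.60, Uggt1 -0.12, Ubxn4 -0.093, Eif2ak3 -0.15, Xbp1 -0.61, Atf4 -0.56, Dnajb9 -0.079, Sdf2l1 -0.043, Hspa8 -0.37 and Sqstm1 -0.34. With the brain-marker covariate they were Hsp90b1 -0.067, Calr -0.41, Pdia3 -0.30, Pdia6 -0.078, Herpud1 -0.63, Ppib -0.31, Uggt1 -0.11 and Xbp1 -0.52, and with the Xist covariate Hsp90b1 -0.016, Calr -0.41, Pdia3 -0.22, Pdia6 -0.086, Herpud1 -0.52, Ppib -0.21 and Xbp1 -0.41. With at least 10 counts in every library they were Calr -0.19, Canx -0.073, Pdia3 -0.015, Herpud1 -0.037, Ppib -0.17, Xbp1 -0.14 and Atf4 -0.23. Atf4, at 0.0045 in the main comparison, was -0.030 with DESeq2, -0.022 with limma-voom, -0.0029 with the legacy method, -0.017 with DESeq2 size factors, -0.0092 with upper-quartile factors and -0.026 with no filter. Leaving out 1 mouse gave ranges of -0.32 to 0.41 for Calr, -0.13 to 0.49 for Pdia3, -0.11 to 0.44 for Pdia6, -0.51 to 0.56 for Herpud1, -0.090 to 0.28 for Ppib, -0.15 to 0.40 for Xbp1, -0.12 to 0.20 for Atf4 and -0.56 to 0.26 for Atf6. Gclc, at 2.57 in the main comparison, lost its call without each p62+/+ mouse while its log2 fold change stayed at 2.52 to 2.68, and Ugdh and Gclc lost theirs with library size only and with hepatocyte-marker scaling.

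List medians moved with the scaling. With library size only they were ER co-chaperones -0.14, other disulfide isomerases and ER oxidation -0.54, ER prolyl isomerases -0.71, calnexin cycle and glycan trimming -0.48, ER-associated degradation -0.39, UPR sensors and transcription factors -0.65, integrated stress response targets -0.67, translocon and signal peptide processing -0.41, oligosaccharyltransferase -0.13, COPII export -0.45, cytosolic chaperones -0.85, mitochondrial chaperones -0.28, secreted plasma proteins -0.26 and NRF2 targets 1.82. With at least 10 counts in every library they were integrated stress response targets 0.33, cytosolic chaperones -0.48, mitochondrial chaperones 0.17 and NRF2 targets 1.21. Leaving out 1 mouse gave 0.25 to 0.70 for ER co-chaperones, 0.088 to 0.48 for calnexin cycle and glycan trimming, 0.052 to 0.50 for ER-associated degradation, -0.011 to 0.55 for translocon and signal peptide processing, 0.23 to 0.74 for oligosaccharyltransferase and -0.45 to -0.19 for cytosolic chaperones. By coding length, 2 of the top 3 genes per kilobase remained in p62+/+ and 2 of the top 3 in p62S351E/+ livers. The share of each ER chaperone in the sum moved by less than its spread when 1 mouse was left out. Counting error was below the spread between mice for each of the 10 genes in both groups, and 3 mice per group, unequal in Xist and in brain-marker transcripts, limit what can be told.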

Other observations

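The ER stress element was found in the promoter windows of 37 genes in all, 5 of them ER chaperones. Of the 32 others, 4 were matched by symbol to a gene that passed the filter on low counts, and 0 of the 4 were called by edgeR in either direction. Ero1b, an ER oxidase gene, stands in the count table under its older symbol Ero1lb. It passed the filter as well and was not called (log2 fold change 0.06, SE 0.53, adjusted p = 0.966). Dnajc3, the inhibitor P58IPK that also serves BiP, had a log2 fold change of 0.86 (adjusted p = 0.325) and Syvn1, the ubiquitin ligase HRD1 with which the Herpud1 product works, had 1.06 with a standard error of 0.78 (adjusted p = 0.553). Hnrnpa3 (-0.30) and Pan2 (-0.28) belong to none of the ER lists.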
